A study of Mus musculus with 6 samples.

Results

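The Hox cluster genes of the mouse were examined in bone marrow cells labelled as long-term hematopoietic stem cells, the rare cells that can rebuild the blood for life. The members were all protein-coding rows of the deposited gene table whose symbol is Hoxa, Hoxb, Hoxc or Hoxd followed by a number, which gave 39 of 55487 rows. Bulk RNA-seq was available for 3 libraries from wild-type, unirradiated mice given carnosine, a dipeptide made in muscle and brain, and 3 libraries from wild-type, unirradiated mice given saline. In both groups the cells were sorted from bone marrow as Lineage-, Sca-1+, c-Kit+, Flk2-, CD34-, but RNA of Cd34 and Flt3 (which encodes Flk2) was abundant in all 6 libraries, which goes against that label at the RNA level. Nothing in the sources used here gives dose, duration, age or sex, and the labels do not say whether each library came from a separate mouse or from pooled mice, so p-values measure only the spread between these samples, which may be technical. Because the libraries are bulk, fewer cells of a type and less RNA per cell cannot be told apart.

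Hox genes encode homeodomain transcription factors and lie in 4 clusters, each on its own chromosome, in which genes at the 3′ end carry low position numbers and genes at the 5′ end high ones. In the embryo the order along the cluster matches the order of expression along the body axis. In blood, the HoxA and HoxB clusters are the ones best known: Hoxa9 is needed for full stem cell function and is a leukaemia gene, and forced expression of Hoxb4 expands mouse stem cells. Hox proteins bind DNA with TALE partners (the Meis and Pbx families), the MLL complex keeps their chromatin active, and Polycomb complexes silence it.

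The 250 bases before the RefSeq start of 4 members are printed because these members carry the results: Hoxa3 and Hoxb4 were the members called different between the groups, and Hoxa5 and Hoxa9 had the highest levels. The sequences are from RefSeq on GRCm38.p6, run 5′ to 3′ on the strand of the gene and end at the base before the start. They cover chr6:52213068-52213317 on the minus strand for Hoxa3, chr11:96318017-96318266 on the plus strand for Hoxb4, chr6:52204588-52204837 on the minus strand for Hoxa5 and chr6:52227371-52227620 on the minus strand for Hoxa9. The Hoxb4 and Hoxa5 windows adjoin the deposited gene spans given below, whereas the Hoxa3 and Hoxa9 windows lie inside theirs. The span of Hoxa3 also holds 3 other Hox genes. Capitals mark matches, on either strand, to the motifs searched.
Hoxa3: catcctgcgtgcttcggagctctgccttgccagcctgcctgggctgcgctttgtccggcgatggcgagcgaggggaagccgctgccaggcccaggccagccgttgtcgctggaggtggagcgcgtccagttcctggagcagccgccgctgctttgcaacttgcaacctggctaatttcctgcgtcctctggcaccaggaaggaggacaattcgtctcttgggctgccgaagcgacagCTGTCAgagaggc
Hoxb4: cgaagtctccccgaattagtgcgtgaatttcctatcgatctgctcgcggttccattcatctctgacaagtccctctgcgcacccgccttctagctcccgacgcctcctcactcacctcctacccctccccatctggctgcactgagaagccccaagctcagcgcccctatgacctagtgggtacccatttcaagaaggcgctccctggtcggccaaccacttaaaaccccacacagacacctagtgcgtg
Hoxa5: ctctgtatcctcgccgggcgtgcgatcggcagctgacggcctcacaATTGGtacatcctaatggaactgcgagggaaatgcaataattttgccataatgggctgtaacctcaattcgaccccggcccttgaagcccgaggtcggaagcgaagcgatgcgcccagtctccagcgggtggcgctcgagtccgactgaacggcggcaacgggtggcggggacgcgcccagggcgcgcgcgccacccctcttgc
Hoxa9: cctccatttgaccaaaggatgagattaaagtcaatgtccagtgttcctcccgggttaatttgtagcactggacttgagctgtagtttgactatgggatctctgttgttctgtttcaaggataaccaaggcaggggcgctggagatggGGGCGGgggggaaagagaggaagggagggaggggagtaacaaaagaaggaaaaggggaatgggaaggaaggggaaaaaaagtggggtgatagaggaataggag
The motifs searched on both strands were the TATA box (TATAAA), the CAAT box (CCAAT), the E-box (CACGTG), the GC box (GGGCGG), the TALE-type motif (TGACAG) and the motif of Hox with Pbx (TGATNNAT); no window held more than 1 match, so none overlapped. Hoxa3 held TGACAG, read as CTGTCA on the printed strand, at bases 13 to 8 before the start, a motif present in 15.9% of 32851 RefSeq windows of that length. Hoxa5 held CCAAT, read as ATTGG, at bases 204 to 200 before the start, which 33.8% of windows hold, and Hoxa9 held GGGCGG at bases 103 to 98, which 32.7% of windows hold. The Hoxb4 window held none of the 6. Its GC content was 58.0%, against 64.8% for Hoxa3, 63.6% for Hoxa5 and 49.6% for Hoxa9.

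Transcripts of the HoxA cluster made up most of the Hox RNA in these cells. A member was counted as expressed at a group mean of at least 1 FPKM (the deposited unit, which scales fragments to transcript length and library size), and 10 of 39 members reached it. Of these, 8 were among the 11 HoxA genes on chromosome 6 and 2 among the 10 HoxB genes on chromosome 11. The 9 HoxC genes on chromosome 15 and the 9 HoxD genes on chromosome 2 had none. Summed over all 6 libraries, the HoxA genes had 14409 counts, the HoxB genes 2013, the HoxC genes 38 and the HoxD genes 19. Taken per length, HoxA gave 87.7% of the summed Hox FPKM in carnosine libraries and 85.8% in saline libraries, and HoxB gave 11.9% in carnosine libraries and 13.7% in saline libraries. All Hox genes together made up a small part of the counts: 0.0228%, 0.0232% and 0.0239% in the carnosine libraries, against 0.0245%, 0.0241% and 0.0233% in the saline libraries.

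**Figure D1:**
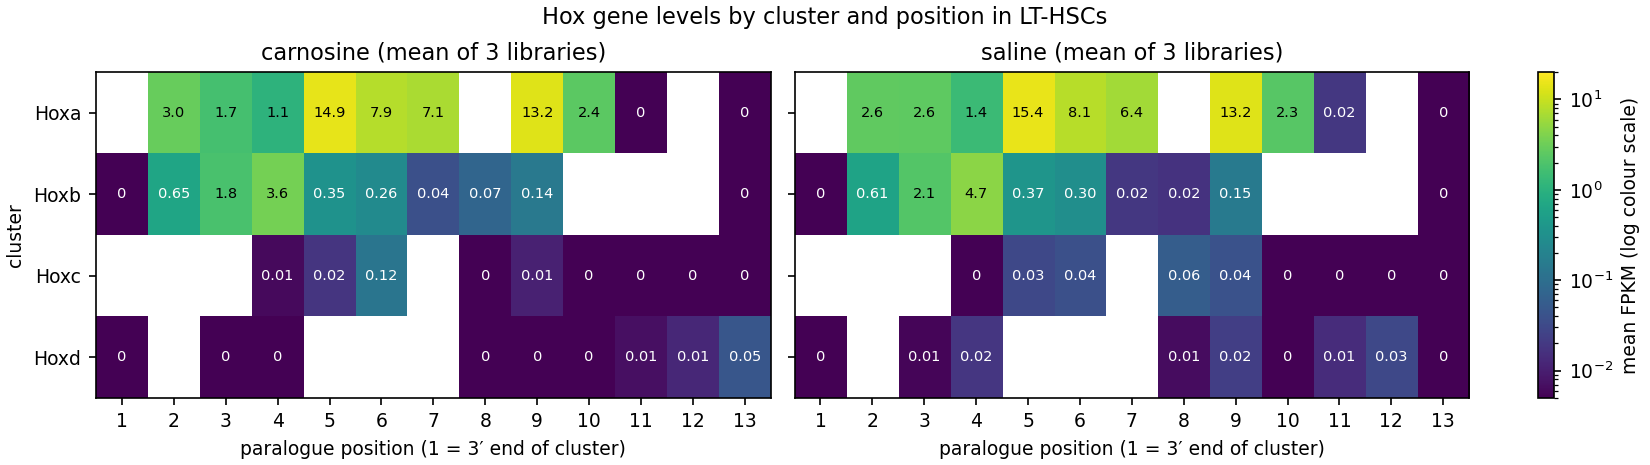
Mean FPKM of the Hox genes (colour, log scale, value printed in the cell), by cluster (rows) and position from the 3′ end (columns), for carnosine (left) and saline (right), 3 libraries each; white cells are positions with no gene or not reported. The levels lie in HoxA positions 2 to 10 and HoxB positions 3 and 4, and HoxC and HoxD are near 0 in both groups.

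By position, the expressed HoxA genes ran without a gap from Hoxa2 to Hoxa10. At the 5′ end of the cluster, Hoxa11 had 3 counts over all 6 libraries and Hoxa13 had 0. In HoxB the expressed genes were Hoxb3 and Hoxb4, with Hoxb2, Hoxb5 and Hoxb6 below 1 FPKM on either side of them. The 9 members with 0 counts in every library were Hoxa13, Hoxb1, Hoxb13, Hoxc10, Hoxc11, Hoxc12, Hoxc13, Hoxd1 and Hoxd10. A count of 0 in a library allows a level of up to 3 counts, or 0.226 to 0.291 CPM (counts scaled to library size, not to gene length) at these depths, for counting error only.

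The highest deposited level belonged to Hoxa5 (ENSMUSG00000038253, GRCm38 chr6:52201754-52204587), a mid-cluster factor. It stood at 14.3, 14.5 and 15.7 FPKM in the carnosine libraries and 15.6, 15.1 and 15.4 FPKM in the saline libraries. Hoxa9 (ENSMUSG00000038227, chr6:52223100-52231089), the member best known for stem cell function, stood at 13.4, 12.9 and 13.3 FPKM with carnosine and 13.3, 13.6 and 12.7 FPKM with saline. For both genes the groups overlapped. Hoxa6 (ENSMUSG00000043219, chr6:52206288-52208722) stood at 5.76, 8.33 and 9.76 FPKM with carnosine and 8.59, 7.77 and 7.97 FPKM with saline. Its carnosine libraries spread on both sides of the saline ones, with carnosine library 1 the lowest of the 6. Hoxa7 (ENSMUSG00000038236, chr6:52214491-52221854), next to Hoxa9, stood at 6.93, 6.80 and 7.46 FPKM with carnosine and 6.62, 6.26 and 6.38 FPKM with saline, so that every carnosine library lay above every saline library. Hoxa2 (ENSMUSG00000014704, chr6:52162417-52164831), the 3′-most expressed member of its cluster, stood at 3.40, 2.75 and 2.72 FPKM with carnosine and 2.28, 2.79 and 2.86 FPKM with saline, and these overlapped.

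Further down the order, Hoxa10 averaged 2.45 FPKM with carnosine and 2.30 FPKM with saline, and Hoxa4 averaged 1.08 FPKM with carnosine and 1.41 FPKM with saline. Hoxb3 (ENSMUSG00000048763, chr11:96323326-96347930), a neighbour of Hoxb4 on the same strand, stood at 1.85, 1.88 and 1.79 FPKM with carnosine and 2.42, 2.08 and 1.94 FPKM with saline. Its groups did not overlap, although the lowest saline library was close to the carnosine ones. Below 1 FPKM, Hoxb2 averaged 0.654 FPKM with carnosine and 0.612 FPKM with saline, Hoxb5 0.345 FPKM with carnosine and 0.375 FPKM with saline, and Hoxb6 0.264 FPKM with carnosine and 0.301 FPKM with saline. Hoxb5 is itself used as a marker of long-term stem cells.

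The order of levels depends on the gene length used. For 28 of the 30 members with a value, the length behind the deposited FPKM equals the summed length of all distinct exons in GENCODE M21 within 1 base, so bases shared by overlapping exons count more than once, and 24 of 39 members have such exons. With each base counted once, Hoxa9 averaged 17.3 ± 0.334 FPKM in carnosine libraries and 17.3 ± 0.579 FPKM in saline libraries (SD, n = 3 each) and came first, ahead of Hoxa5 at 14.9 FPKM with carnosine and 15.4 FPKM with saline. Hoxa7 came to 13.6 ± 0.680 FPKM with carnosine and 12.4 ± 0.361 FPKM with saline, in place of the deposited 7.06 FPKM with carnosine and 6.42 FPKM with saline, and stood above Hoxa6. Hoxa10 came to 5.06 FPKM with carnosine and 4.75 FPKM with saline, and stood above Hoxb4. The same 10 members were at or above 1 FPKM, and differences between groups within a gene do not change with its length.

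**Figure D2:**
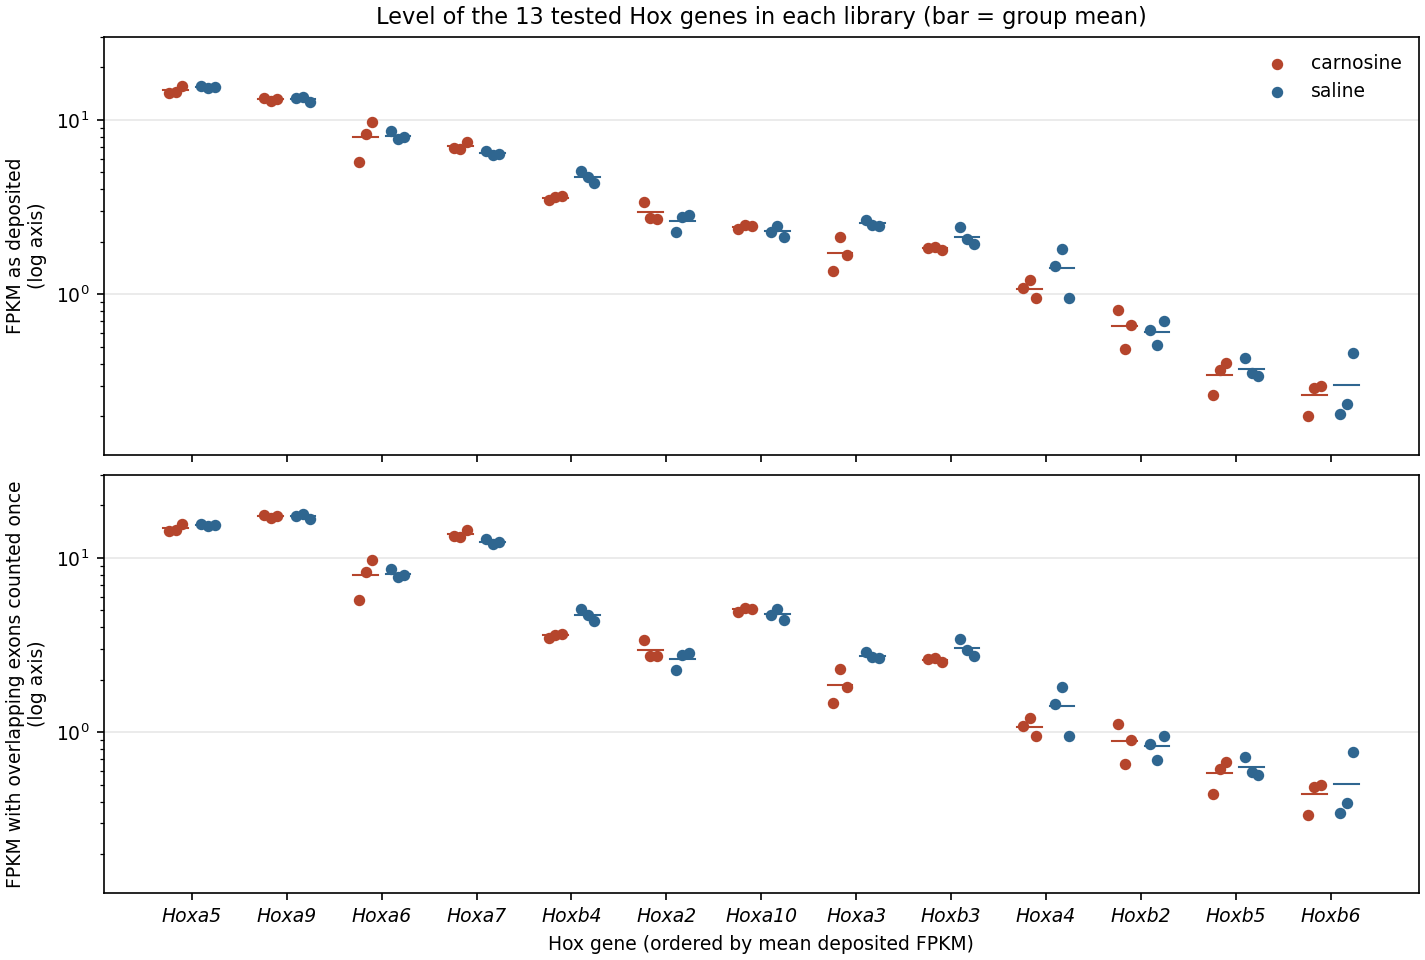
FPKM (log axis) of the 13 tested Hox genes in each library, carnosine left and saline right within a gene, with a bar at each group mean; upper panel as deposited, lower panel with overlapping exons counted once. Hoxa5 and Hoxa9 are highest in both panels; Hoxa7 and Hoxa10 move up in the lower one, and Hoxb4 and Hoxa3 have every carnosine point below every saline point.

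Between treatments, Hoxb4 and Hoxa3 were lower with carnosine, and no Hox gene was called higher. Of 39 members, 13 passed the filter on low counts and could be tested, and edgeR's quasi-likelihood test with Benjamini-Hochberg adjustment over 15298 genes called 0 higher and 2 lower in carnosine at an adjusted p under 0.05, or 15.4% of those tested. Over all genes 17.9% were called, 9.51% higher and 8.39% lower, so the share among Hox genes was near the background. The median log2 fold change of the tested members was -0.05, against 0.00 over all genes.

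Hoxb4 (ENSMUSG00000038692, chr11:96318267-96321638), the homeodomain factor used to expand mouse stem cells, was lower with carnosine. It stood at 3.48, 3.62 and 3.68 FPKM in the carnosine libraries, from 108, 97 and 125 counts, and at 5.10, 4.73 and 4.37 FPKM in the saline libraries, from 136, 125 and 148 counts. All 3 carnosine libraries lay below all 3 saline libraries. The log2 fold change was -0.39 (SE 0.10, 95% interval -0.62 to -0.16), with an adjusted p of 0.0341 in edgeR. Its exons are shared with no other annotated gene.

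Hoxa3 (ENSMUSG00000079560, chr6:52169062-52213336), a 3′ member known for its role in thymus and pharyngeal development, was also lower with carnosine. It stood at 1.36, 2.13 and 1.69 FPKM in the carnosine libraries, from 107, 144 and 145 counts, and at 2.68, 2.50 and 2.48 FPKM in the saline libraries, from 180, 167 and 212 counts. The groups did not overlap, and carnosine library 1 was the lowest. The log2 fold change was -0.56 (SE 0.15, 95% interval -0.92 to -0.20), with an adjusted p of 0.0430 in edgeR. Of the 6014 exon bases of Hoxa3, 482 are shared on the same strand with the gene model Gm28308 and 1529 lie opposite antisense RNAs such as Hoxaas2 and Hoxaas3, and no source used here gives the strand setting of the counting, so their reads cannot be told apart from its own.

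Both calls lie close to the threshold and rest on the full set of libraries. Leaving out 1 library at a time, the Hoxb4 call held only without saline library 3 and the Hoxa3 call only without carnosine library 2, while both log2 fold changes stayed negative in every such fit, from -0.45 to -0.33 for Hoxb4 and from -0.73 to -0.42 for Hoxa3. DESeq2 gave Hoxb4 an adjusted p of 0.180 and Hoxa3 one of 0.0442, and called 12.8% of all genes, 5.68% lower in carnosine.

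The other 11 tested members did not pass. Hoxa7 was the nearest, with a log2 fold change of 0.14 (95% interval -0.0003 to 0.29, edgeR adjusted p = 0.153) and no overlap between groups. Hoxb3, beside Hoxb4, had -0.21 (95% interval -0.46 to 0.04, edgeR adjusted p = 0.215). The limit given above for reads of Hoxa3 holds for these genes too. Of the 4251 exon bases of Hoxb3, 2250 lie opposite Hoxb3os, and of the 2876 of Hoxa7, 586 lie opposite Hoxaas3. Hoxa2, Hoxa4, Hoxa9, Hoxb2 and Hoxb5 also overlap other gene models in part. In all, 4 of 13 tested members had groups that did not overlap in CPM (Hoxa3, Hoxb3 and Hoxb4 lower, Hoxa7 higher), against 38.7% of all genes tested (20% higher, 18.7% lower). The narrowest interval was that of Hoxa9, from -0.09 to 0.10 around a log2 fold change of 0.00 (edgeR adjusted p = 0.968). Hoxa5 had an interval from -0.20 to 0.11 and Hoxa10 from -0.10 to 0.30. Intervals were wider for Hoxa2 (-0.21 to 0.54), Hoxa6 (-0.47 to 0.43) and Hoxa4 (-1.01 to 0.29). For the low HoxB members they ran from -0.44 to 0.65 for Hoxb2, from -0.66 to 0.46 for Hoxb5 and from -1.13 to 0.67 for Hoxb6, so sizeable changes in either direction were not detectable at this depth.

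**Figure D3:**
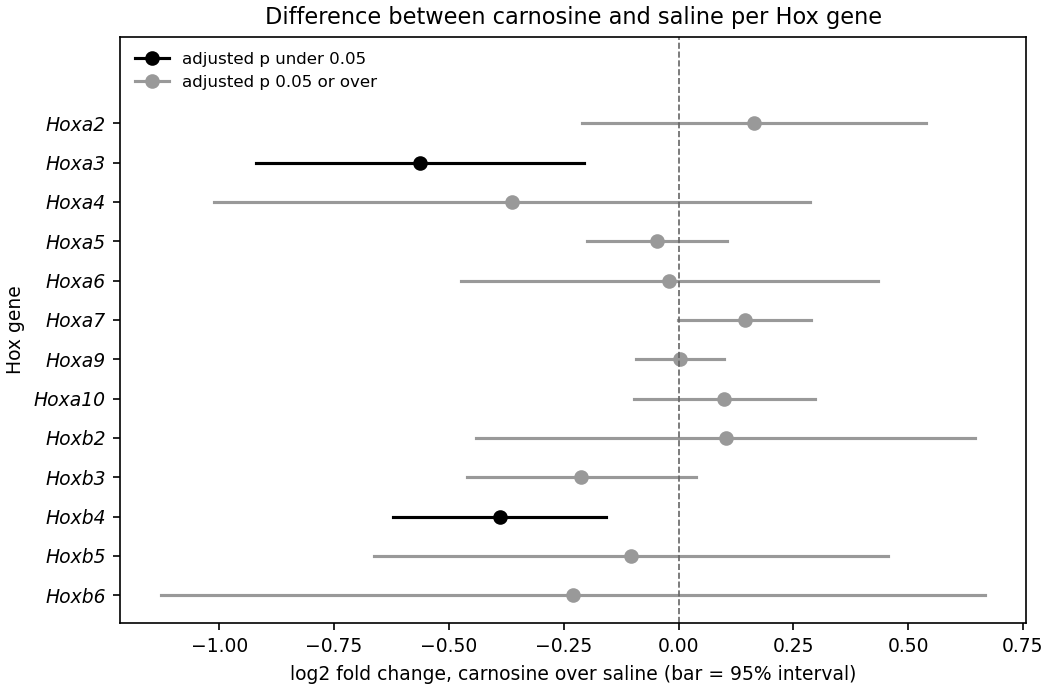
Log2 fold change of carnosine over saline (x axis) for the 13 tested Hox genes (y axis, in cluster order), with 95% intervals from edgeR's quasi-likelihood fit on 3 libraries each; black marks an adjusted p under 0.05. Hoxa3 (-0.56) and Hoxb4 (-0.39) lie left of 0, and the interval of Hoxa9 is the narrowest around 0.

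Summed per cluster, HoxA stood at 48.8, 51.3 and 54.1 FPKM in carnosine libraries and 53.0, 52.4 and 51.1 FPKM in saline libraries, which overlapped. HoxB stood at 6.75, 6.96 and 7.15 FPKM in carnosine libraries and 9.04, 7.97 and 8.04 FPKM in saline libraries, which did not overlap. The HoxB sum consists mostly of Hoxb4 and Hoxb3. These sums were not tested.

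The remaining 26 members were not tested: 9 had 0 counts, and 17 had some counts but too few to pass the filter. Of the low ones, Hoxc6 had 4, 2 and 8 counts with carnosine and 1, 1 and 2 with saline, Hoxb8 had 3, 3 and 6 with carnosine and 0, 0 and 3 with saline, and Hoxc8 had 0, 0 and 0 with carnosine and 3, 2 and 3 with saline. These counts are at or near the floor and give no fold. Hoxd3 and Hoxd4 share exon bases (62.3% of the exon bases of Hoxd3 are shared on its strand), so their few counts cannot be assigned.

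The cells were read against marker genes of the gate and of other cells. Kit averaged 529 CPM with carnosine and 545 CPM with saline, and Procr averaged 33.6 CPM with carnosine and 35.9 CPM with saline. Slamf1, a long-term stem cell marker, was low at 3.64 CPM with carnosine and 4.27 CPM with saline. RNA of both markers that the gate excludes was abundant, against the label: Cd34 averaged 860 CPM with carnosine and 855 CPM with saline, and Flt3 averaged 773 CPM with carnosine and 816 CPM with saline. These are RNA levels and do not measure the surface proteins used in the sort. The 8 erythroid markers summed to 146 to 153 CPM in carnosine libraries and 54.6 to 65.1 CPM in saline libraries, with 5 of 8 called higher. Beside this and the marker counts that follow, 9.51% of all genes tested were called higher and 8.39% lower. The 8 neutrophil and monocyte markers summed to 143 to 154 CPM with carnosine and 167 to 173 CPM with saline (1 of 5 tested called lower, 0 higher). The lower sum came from the monocyte gene Csf1r, at 11.8 CPM with carnosine and 25.7 CPM with saline (edgeR adjusted p = 0.000112), and from Lyz2, at 131 CPM with carnosine and 140 CPM with saline (edgeR adjusted p = 0.195). The granule genes Camp, Ngp, S100a8, S100a9 and Ltf were low and had higher means with carnosine. The largest of these means was that of Ltf, at 3.57 CPM with carnosine and 1.72 CPM with saline (edgeR adjusted p = 0.657). Ltf stood at 0.910, 8.83 and 0.983 CPM in the carnosine libraries and 0.192, 0.291 and 4.69 CPM in the saline libraries. Each Ltf mean thus rested on 1 library. The 8 B-lineage markers summed to 43.3 to 48.2 CPM with carnosine and 45.5 to 52.7 CPM with saline (2 of 7 tested called lower), and the 5 T-lineage markers to 50.0 to 56.1 CPM with carnosine and 56.0 to 59.8 CPM with saline (1 of 3 called lower, Cd4). This T-lineage sum was mostly Lck, at 43.5 CPM with carnosine and 46.7 CPM with saline. The 5 megakaryocyte markers summed to 69.1 to 76.1 CPM with carnosine and 74.0 to 77.6 CPM with saline (1 of 3 called lower, Pf4). Most of that sum was Itga2b, at 64.4 CPM with carnosine and 65.2 CPM with saline. The 9 stromal markers summed to 85.5 to 102 CPM with carnosine and 82.6 to 91.7 CPM with saline (1 of 4 called higher, Cxcl12). Here Pdgfrb made up most of the sum, at 80.0 CPM with carnosine and 79.6 CPM with saline. The 6 endothelial markers summed to 141 to 143 CPM with carnosine and 150 CPM in each saline library to 3 digits. This endothelial sum was mostly Pecam1, called lower at 102 CPM with carnosine and 116 CPM with saline (edgeR adjusted p = 0.00887). Stab2 was called higher, at 9.26 CPM with carnosine and 4.76 CPM with saline (edgeR adjusted p = 0.00731). Cdh5, Kdr and Flt4 had higher means with carnosine but were not called, and Emcn averaged 19.8 CPM in both groups. The 14 stem cell and gate markers summed to 1534 to 1666 CPM with carnosine and 1560 to 1637 CPM with saline, with 1 called higher, Mecom (edgeR adjusted p = 0.0241). No marker was at 0 in all libraries, and the part of these cells in the Hoxb4 and Hoxa3 differences was not tested.

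Among the other RNAs of the clusters, 44 non-coding or pseudogene rows lie between the first and last Hox gene of a cluster, and 22 of them had 0 counts. Only 2 were tested and none was called: Hoxb3os, antisense to Hoxb3, averaged 2.40 CPM with carnosine and 2.48 CPM with saline (edgeR adjusted p = 0.928), and Gm11539, a processed pseudogene whose reads may come from its parent gene, averaged 88.2 CPM with carnosine and 96.8 CPM with saline (edgeR adjusted p = 0.249). The genes that flank the clusters gave 3 higher and 0 lower of 14 tested (21.4%, near the 17.9% of all genes; median log2 fold change 0.00). They were Hnrnpa1, an RNA-binding protein, at 742 ± 6.50 CPM with carnosine and 647 ± 6.43 CPM with saline, Cbx5, a heterochromatin protein, at 323 ± 8.65 CPM with carnosine and 258 ± 10.9 CPM with saline, and Mtx2, a mitochondrial import protein, at 37.7 ± 2.10 CPM with carnosine and 31.8 ± 0.520 CPM with saline (SD, n = 3 each). Hnrnpa1 and Cbx5 lie beside HoxC and Mtx2 beside HoxD, the clusters with almost no Hox RNA here.

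The TALE cofactors, which bind DNA together with Hox proteins, gave 0 higher and 2 lower of 10 tested (20%, near the 17.9% of all genes; median log2 fold change -0.09). Both were lower with carnosine: Pbxip1, which binds Pbx proteins and keeps them from DNA, at 75.3 ± 1.52 CPM with carnosine and 92.9 ± 3.49 CPM with saline (log2 fold change -0.30, edgeR adjusted p = 0.00408), and Tgif1, a TALE repressor, at 71.7 ± 4.71 CPM with carnosine and 93.7 ± 4.79 CPM with saline (-0.39, edgeR adjusted p = 0.00616). Meis1, the main Meis partner of Hoxa9 in stem cells, stood at 208, 216 and 218 CPM with carnosine and 223, 253 and 240 CPM with saline. These did not overlap, but Meis1 did not pass the test (log2 fold change -0.16, edgeR adjusted p = 0.0647). Pbx4 had -0.30 (edgeR adjusted p = 0.0708).

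Of the chromatin regulators of Hox clusters, the MLL list gave 3 higher and 5 lower of 21 tested (38.1%, median log2 fold change -0.11). Kdm6b, a demethylase of the Polycomb mark, averaged 695 ± 13.6 CPM with carnosine and 969 ± 18.7 CPM with saline (log2 fold change -0.48, edgeR adjusted p = 2.5e-05). Psip1, which tethers MLL to chromatin, moved the other way, at 238 ± 2.45 CPM with carnosine and 200 ± 1.85 CPM with saline (0.25, edgeR adjusted p = 0.000970). Aff3, of the elongation partners, had -0.27 (edgeR adjusted p = 0.00400) and Kat6a, an acetyltransferase, -0.17 (edgeR adjusted p = 0.00672). Kmt2a, which encodes MLL itself and is named here after its values were seen, stood at 317, 358 and 330 CPM with carnosine and 386, 217 and 460 CPM with saline, so the saline libraries lay on both sides of the carnosine ones (edgeR adjusted p = 0.838). The count called in this list was 4 without carnosine library 1, where 11.4% of all genes were called, and 5 without saline library 2, where 11.1% were, against 17.9% with all libraries.

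The Polycomb list gave 2 higher and 6 lower of 31 tested (25.8%, median log2 fold change -0.03). Phf1, an accessory subunit of Polycomb complex 2, averaged 26.2 ± 0.797 CPM with carnosine and 39.1 ± 1.97 CPM with saline (log2 fold change -0.57, edgeR adjusted p = 0.00132). Cbx2, which reads the Polycomb mark, had -0.32 (edgeR adjusted p = 0.0173). Rbbp4, a histone-binding subunit shared with other complexes, averaged 372 ± 6.85 CPM with carnosine and 323 ± 2.98 CPM with saline (0.20, edgeR adjusted p = 0.00203). The count of 8 called fell to between 2 and 5 whichever of the 6 libraries was left out, while the share called over all genes fell to between 11.1% and 11.9%, against 17.9% with all libraries.

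The boundary list was made up of Ctcf, cohesin genes and Maz, a zinc-finger factor, whose products take part in domain boundaries. It gave 5 higher and 0 lower of 7 tested (71.4%, median log2 fold change 0.18). Over all genes 17.9% were called, 9.51% higher and 8.39% lower. Rad21, a cohesin subunit, averaged 368 ± 10.2 CPM with carnosine and 297 ± 3.06 CPM with saline (log2 fold change 0.31, edgeR adjusted p = 0.000546). Smc1a, Smc3 and Stag2, of the same ring, had 0.15, 0.18 and 0.18 (edgeR adjusted p = 0.00462, 0.00400 and 0.0149). Ctcf itself, named here after its values were seen, did not pass, at 224 CPM with carnosine and 206 CPM with saline (edgeR adjusted p = 0.109). Maz had the only negative value of the 7, at 346 CPM with carnosine and 351 CPM with saline (log2 fold change -0.02, edgeR adjusted p = 0.936), and is also named after its values were seen. Without saline library 3 the list had 3 called, beside 11.8% of all genes.

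The Cdx and retinoic acid list, inputs that set Hox expression in the embryo, gave 3 higher and 1 lower of 7 tested (57.1%, median log2 fold change 0.19). Over all genes 17.9% were called, 9.51% higher and 8.39% lower. In this list 11 of 18 genes were too low to test. Aldh1a1, which makes retinoic acid, averaged 22.1 ± 0.377 CPM with carnosine and 14.3 ± 0.795 CPM with saline (log2 fold change 0.62, edgeR adjusted p = 0.00164). Cyp26b1, which degrades it, averaged 3.31 ± 0.299 CPM with carnosine and 1.90 ± 0.516 CPM with saline (0.81, edgeR adjusted p = 0.0441). Of the receptors, Rara was lower (-0.36, edgeR adjusted p = 0.0149) and Rxra higher (0.28, edgeR adjusted p = 0.0358) with carnosine, while Rxrb stood at 105 CPM with carnosine and 122 CPM with saline (edgeR adjusted p = 0.136). The count of 4 called fell to 2 without any 1 of the carnosine libraries and to 1 without saline library 2 or 3, fits in which 11.1% to 11.9% of all genes were called.

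The list of genes named in leukaemia work as targets of Hoxa9 with Meis1 gave 0 higher and 4 lower of 19 tested (21.1%, beside 17.9% of all genes called and 8.39% called lower; median log2 fold change -0.07). Myb, a transcription factor of blood progenitors, averaged 487 ± 2.52 CPM with carnosine and 627 ± 4.18 CPM with saline (log2 fold change -0.37, edgeR adjusted p = 3.6e-05). Pim1, a survival kinase, had -0.26 (edgeR adjusted p = 0.0178), Sox4, a transcription factor, -0.13 (edgeR adjusted p = 0.00553) and Syk, a tyrosine kinase, -0.12 (edgeR adjusted p = 0.0205). Cdk6, a cell-cycle kinase, did not pass, at 1042 CPM with carnosine and 1006 CPM with saline (edgeR adjusted p = 0.135). Without saline library 3 this list had 2 called, beside 11.8% of all genes. The other homeobox factors of blood cells gave 1 higher and 2 lower of 14 tested (21.4%, also near the 17.9% of all genes; median log2 fold change -0.08). Zeb2, a repressor needed for stem cell differentiation, averaged 83.4 ± 8.86 CPM with carnosine and 126 ± 6.79 CPM with saline (-0.60, edgeR adjusted p = 0.00281). Pou2f2, known from B cells, was lower (-0.32, edgeR adjusted p = 0.00910) and Nkx2-3, known from spleen development, was higher at 68.8 ± 1.85 CPM with carnosine and 53.8 ± 3.05 CPM with saline (edgeR adjusted p = 0.00593).

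**Figure D4:**
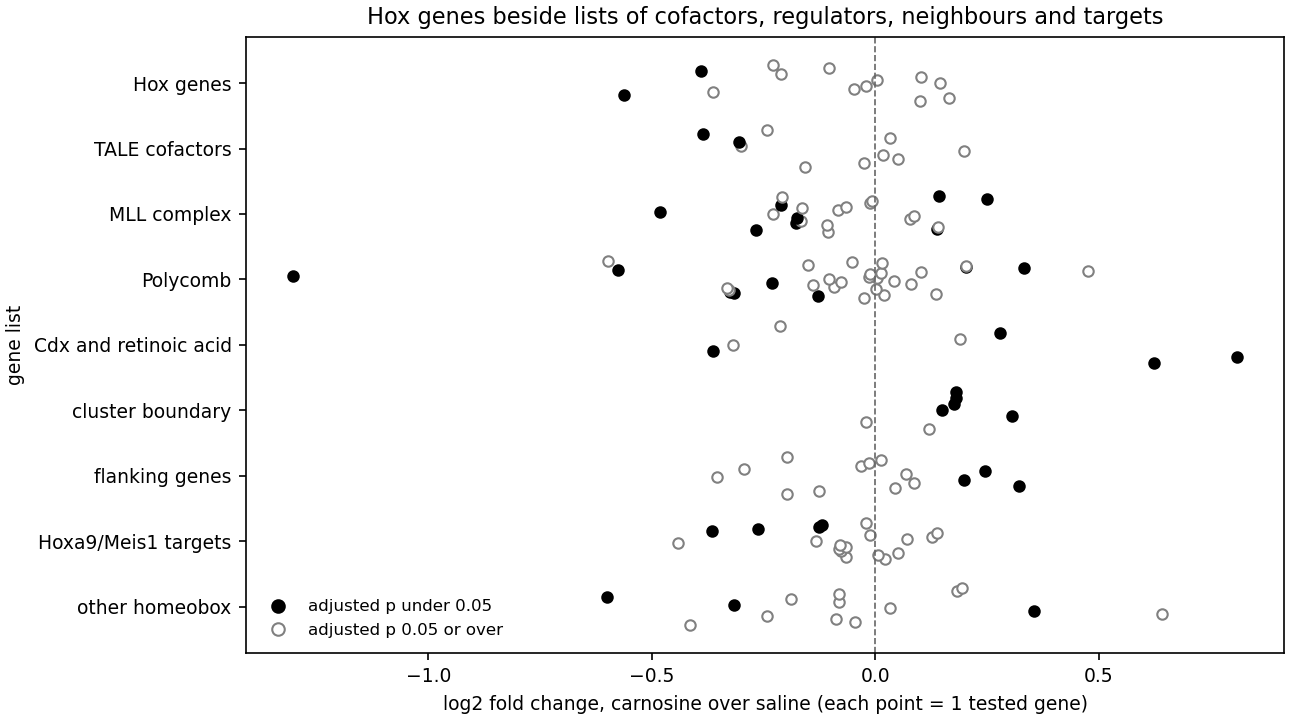
Log2 fold change of carnosine over saline (x axis) for each tested gene of the Hox set and of 8 lists (rows), 3 libraries each; filled points have an edgeR adjusted p under 0.05. In the Hox row 2 of 13 points are filled, both left of 0, and in the boundary row 5 of 7 are filled, all right of 0.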

How the data were processed

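Per the labels' protocols, poly-A RNA was made into stranded paired-end libraries and sequenced on an Illumina NovaSeq. The authors deposited raw counts per gene and FPKM per gene for 6 libraries; among the tools in the submitters' processing notes are HISAT2 and StringTie, for the build GRCm38. No source used here gives the strand setting, the annotation release or the handling of multi-mapped reads. Gene coordinates are the table's own, and exons were read from GENCODE M21. Promoter windows came from RefSeq (GRCm38.p6), where 22 of 39 members matched, and the motifs were chosen after the sequences were seen.

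Library totals ran from 10304539 to 13251332 counts. Counts were tested with edgeR 4.0.16 in R 4.3.3 (quasi-likelihood, TMM scaling, filterByExpr by group, two-sided). Benjamini-Hochberg adjustment was over 15298 genes, with a threshold of 0.05. The test was checked on simulated data, but its recovery of changes as small as those of Hoxb4 and Hoxa3 is not given here. CPM are on the TMM scale. DESeq2 1.42.0, limma 3.58.1 (voom, and trend on log2 of FPKM plus 1 or 0.1), other scalings and filters, a replicate block, a threshold of 0.01 and the omission of each library were tried. The members and lists were chosen with earlier results of these data known. All 39 members enter the counts, and from each list up to 4 genes with the smallest p and the one with the highest mean CPM were eligible to be named; values of some genes are not reported here.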

Additional observations from a re-analysis of the deposited data

How the results depend on the processing

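Counts of 97 to 212 per library limit Hoxb4 and Hoxa3, and both calls are sensitive to the settings. In 16 refits with another test, scaling, filter, unit, block or a library left out, both log2 fold changes stayed negative, each was called in 8, and the other 11 tested members were called in none. Of the 2 members called lower, 1 was called with DESeq2 and 1 with no filter, beside 5.68% and 3.04% of all genes. Limma called 1 on log2(FPKM + 1) and 1 on log2(FPKM + 0.1), beside 7.6% and 7.54%. With a replicate block the count was 0 (5.29% of all genes), and at an adjusted p under 0.01 also 0 (3.29%). When a library was left out, 0 to 1 were called, beside 5.05% to 5.57% of all genes. DESeq2 tested 12 Hox genes and the fit with no filter 30, in place of 13. Hoxb4 had a log2 fold change of -0.38 with DESeq2 (adjusted p = 0.180), -0.375 with no filter (edgeR adjusted p = 0.0811) and -0.39 with the replicate block (edgeR adjusted p = 0.0857). Without 1 library it ran from -0.45 to -0.33 (edgeR adjusted p from 0.0493 to 0.0997). Hoxa3 had -0.39 on log2(FPKM + 1) (limma adjusted p = 0.0549), -0.56 on log2(FPKM + 0.1) (limma adjusted p = 0.0616), -0.57 with the replicate block (edgeR adjusted p = 0.0733) and -0.73 to -0.42 without 1 library (edgeR adjusted p from 0.0146 to 0.115). With counts of Gm28308 added, an alternative chosen after seeing the data, Hoxa3 had -0.52 (edgeR adjusted p = 0.0286). Libraries with the same replicate number had correlations of deviations of -0.05, -0.069 and 0.019, and the labels do not say whether they were paired. With 3 libraries in each group this check cannot decide on pairing, so the block result stands beside the main one. The cause of these changes was not tested, except that fewer samples were fitted when a library was left out. Over all genes, 1455 were called higher and 1283 lower: DESeq2 called 820 lower, the replicate block 946 higher and 810 lower, a threshold of 0.01 gave 603 higher and 504 lower, and omission of a library 932 to 1009 higher and 801 to 883 lower. In the lists, 17 of 125 tested genes were called higher and 20 lower, beside 9.51% and 8.39% of all genes. Limma on FPKM called 11 higher with either pseudocount (8.81% and 8.73% of all genes), and the replicate block 11 higher (6.18%). The threshold of 0.01 gave 9 higher and 10 lower (3.94% and 3.29% of all genes). Omission of a library gave 10 to 13 higher, beside 5.99% to 6.45% of all genes. It gave 13 to 17 lower, beside 5.05% to 5.57%. At 0.1 FPKM 16 members counted as expressed and at 10 FPKM 2, in place of 10. Hoxa9 changed sign in 7 alternatives, Hoxa6, Hoxb2 and Hoxb5 in 2 each and Hoxb6 in 1, none of them called. In the main fit and the 16 refits the median log2 fold change of all genes lay between -0.0141 (upper quartile scaling) and 0.0151 (no filter).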

Other observations

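Of the untested members, Hoxb9 had 3, 4 and 8 counts with carnosine and 6, 2 and 7 with saline. Among the microRNA rows of the clusters, Mir10a had 1 count in each of the 6 libraries and Mir196b had 1, 0 and 1 with carnosine and 1, 1 and 1 with saline; poly-A libraries do not measure mature microRNAs. In the Polycomb list, Pcgf5 was called lower with the widest spread: it averaged 46.7 ± 2.29 CPM with carnosine and 115 ± 56.2 CPM with saline (SD, n = 3 each; log2 fold change -1.30, edgeR adjusted p = 0.0463), and it is named here after its values were seen. Hlf, a stem cell factor, stood at 360, 210 and 205 CPM with carnosine and 215, 209 and 221 CPM with saline, so carnosine library 1 stood apart; the same library had the lowest Hoxa3 and Hoxa6.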
